A study of Mus musculus with 7 samples.

Results

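The genes for 7 lipid-sensing receptors that position B cells were followed in RNA sequencing of mouse spleen cells: the sphingosine 1-phosphate (S1P) receptors S1pr1, S1pr2, S1pr3 and S1pr4, the oxysterol receptor Gpr183 (EBI2), the cannabinoid receptor Cnr2 (CB2) and the prostaglandin E2 receptor Ptger4 (EP4). They were chosen by gene symbol for their ligands and their known role in B cell position, and all 7 were found among the 23845 rows of the deposited expression table. The cells came from C57Bl/6 mice and were splenocytes left after magnetic beads had removed cells with surface CD43, which leaves mainly resting B cells. One group of 4 libraries carries a conditional knockout of Foxp1, a forkhead transcription factor, made with a Cre recombinase (here cKO), and the other group of 3 libraries is wild type. No control with the Cre alone is named in the labels. Neither the age of the mice nor whether each library is 1 mouse is stated, so a p-value here measures only how these libraries vary, which may be technical.

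Lymphocytes find their place in lymphoid tissue by reading gradients of chemokines and of lipids. S1P is rich in blood and lymph and scarce inside tissue, and S1pr1 draws cells towards it, while S1pr2 holds germinal centre B cells back. In mouse spleen S1pr1 and S1pr3 keep marginal zone B cells next to the blood-filled sinus, and Cnr2 also helps to hold them there. Gpr183 senses 7α,25-dihydroxycholesterol and takes B cells to the outer follicle and to its border with the T cell zone. Ptger4 couples to the stimulatory G protein and raises cyclic AMP in B cells, T cells and macrophages.

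Of the 7 genes, 5 had a negative and 2 a positive log2 fold change in cKO, and 0 passed the threshold of 0.05 in limma's moderated test adjusted over all 10065 genes tested, where 1.32% of genes passed. At an unadjusted p under 0.05 stood 4 of the 7 (S1pr1, S1pr4 and Gpr183 lower, Ptger4 higher), against 10.7% of all genes. The median log2 fold change was -0.52 over the 7 genes and -0.09 over all genes tested. Libraries ran on lane 5 (wild type 2 and 3, cKO 1 and 4) or lane 7 (wild type 1, cKO 2 and 3), and most genes differed between lanes. With the lane as a term, S1pr4 fell and Ptger4 rose past the threshold, 2 of 7 genes against 10.8% of all genes. The same pair passed in lane 5 alone, where 6.08% of genes did, and S1pr4 and Gpr183 were lower with each library centred on its median, where 3.02% of genes passed. With that centring and the lane term together 5 genes passed (22.1% of all genes), and with quantile normalization and the lane term 4 (19.7%).

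The targeted gene and the cell type were checked first. Foxp1 lay between 33.4 and 42.7 FPKM in wild type and between 18.4 and 29.0 in cKO, without overlap (log2 fold change -0.81, SE 0.22, limma adjusted p = 0.159 without and 0.0104 with a lane term). FPKM (fragments divided by transcript length and by the mapped fragments of the library) cover the whole gene, so exons that the Cre does not remove are counted too. B cell genes were abundant in every library, with Cd79a between 98.7 and 235.6 FPKM and Ms4a1 (CD20) between 340.7 and 612.0. None of the 10 B lineage markers passed limma's threshold over all genes. An unadjusted p under 0.05 was found for 3, all lower in cKO, against 10.7% of all genes in either direction. Summed over the 10, the level was 2298 to 2679 FPKM in wild type and 1411 to 2174 in cKO. The summed level of 14 markers of monocytes, macrophages and dendritic cells was 269.6 to 577.2 FPKM in wild type and 1003 to 1429 in cKO. Of these, 5 rose past the threshold, where 1.27% of all genes did. In bulk RNA, fewer cells of a type and less RNA per cell cannot be told apart.

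S1pr4 and Ptger4, the 2 genes that passed with the lane as a term, and Gpr183, which came next, are shown with the 250 bases before their RefSeq start (GRCm38.p6), read 5′ to 3′ on the gene's strand. They are shown because Foxp1 is a forkhead factor and the Kruppel-like factor Klf2 is a known activator of S1pr1. Capitals mark matches to CACCC (a Kruppel-like factor box) on either strand, and the forkhead letters TGTTTAC were searched on both strands too. The intervals, all on the minus strand, are chr10:81500138-81500387 for S1pr4, chr15:5244188-5244437 for Ptger4 and chr14:121965194-121965443 for Gpr183.
S1pr4: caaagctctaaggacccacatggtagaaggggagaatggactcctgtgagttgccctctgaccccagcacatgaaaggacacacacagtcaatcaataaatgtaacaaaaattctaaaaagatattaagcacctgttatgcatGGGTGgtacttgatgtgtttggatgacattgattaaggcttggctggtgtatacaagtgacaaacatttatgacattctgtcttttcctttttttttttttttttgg
Ptger4: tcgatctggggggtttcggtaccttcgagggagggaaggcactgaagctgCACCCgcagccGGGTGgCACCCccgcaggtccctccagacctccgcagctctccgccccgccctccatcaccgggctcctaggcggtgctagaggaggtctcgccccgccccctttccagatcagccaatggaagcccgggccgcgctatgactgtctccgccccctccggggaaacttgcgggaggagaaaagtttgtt
Gpr183: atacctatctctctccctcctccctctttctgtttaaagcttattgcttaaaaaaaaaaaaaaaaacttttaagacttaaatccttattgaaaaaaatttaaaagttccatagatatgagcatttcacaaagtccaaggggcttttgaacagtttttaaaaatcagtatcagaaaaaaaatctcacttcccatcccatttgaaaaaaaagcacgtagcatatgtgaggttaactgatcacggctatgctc

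RefSeq windows were at hand for 6 of the 7 genes (7 windows, since Cnr2 has 2 starts), and S1pr1 was not matched. TGTTTAC stood in 0 of the 7 windows, against 3.17% of 32851 windows of the same length over all genes. CACCC stood in 4 of the 7 windows, against 52.0% of all windows: 3 times before Ptger4, 2 times before S1pr3, 1 time each before S1pr2 and S1pr4, and 0 times before Gpr183 and Cnr2. These counts describe letters only, and FPKM say nothing of binding.

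**Figure D1:**
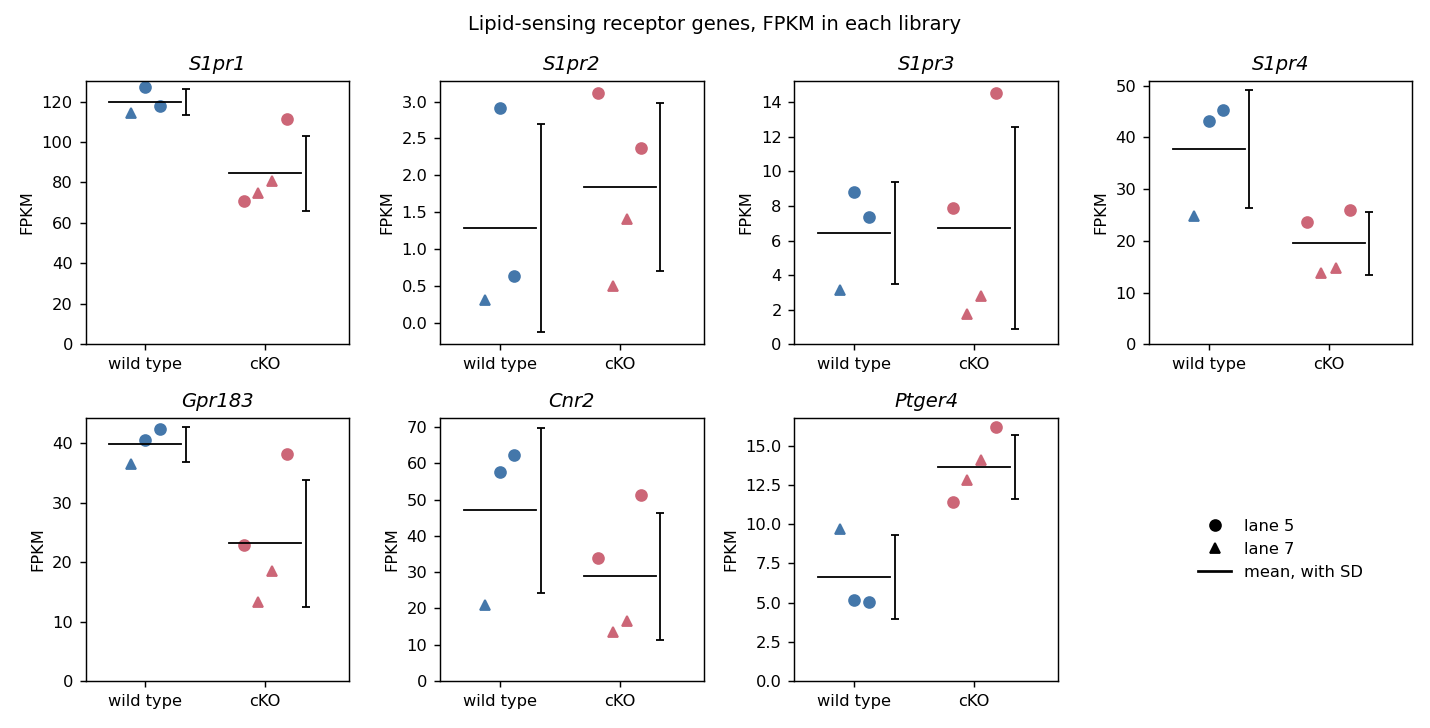
FPKM of each receptor gene (vertical axes, linear, a panel per gene) in 3 wild type and 4 cKO libraries, with circles for lane 5, triangles for lane 7, horizontal lines for means and bars for SD. In S1pr1 and Ptger4 the groups do not overlap, and in Cnr2 and S1pr3 every lane 7 library lies under every lane 5 library.

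S1pr1 was the most abundant of the receptors, as in most circulating lymphocytes, which use it to leave tissue. It lies on chromosome 3 from 115710433 to 115715055 (GRCm38, as in the deposited table). Its level was 114.4, 127.1 and 117.8 FPKM in wild type 1, 2 and 3 against 70.8, 75.0, 80.8 and 111.5 in cKO 1 to 4. Every cKO library lay under every wild type library, which held for 2.14% of all genes in that direction, though cKO 4 came within 2.87 FPKM of wild type 1. The means were 119.8 ± 6.59 (SD, n = 3) and 84.5 ± 18.5 (SD, n = 4), and the log2 fold change was -0.52 (SE 0.22, limma adjusted p = 0.440). An exact permutation test, two-sided, returned p = 0.0571, and none smaller is possible with 35 splits. The fold change with a lane term was -0.50 (SE 0.19, limma adjusted p = 0.142), with -0.46 in lane 5 and -0.55 in lane 7.

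S1pr4, an S1P receptor found mainly on blood and lymphoid cells, was 24.7, 43.2 and 45.3 FPKM in wild type 1, 2 and 3 against 23.6, 13.7, 14.8 and 26.0 in cKO 1 to 4. The groups overlapped because wild type 1, from lane 7, lay under cKO 4, from lane 5, while within each lane every cKO library was lower. Its means were 37.8 ± 11.4 (SD, n = 3) and 19.5 ± 6.15 (SD, n = 4), a log2 fold change of -0.94 (SE 0.32, limma adjusted p = 0.277; two-sided exact permutation p = 0.114). With the lane as a term S1pr4 fell by 0.81 on the log2 scale (SE 0.14, limma adjusted p = 0.00316), where 1.19% of all genes were called lower. The differences were -0.83 in lane 5 and -0.77 in lane 7. The gene lies on chromosome 10 from 81497745 to 81500137.

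S1pr3, which marginal zone B cells carry, and S1pr2, the receptor of germinal centre B cells, were low. S1pr3 (chromosome 13, 51408618 to 51422797) was 3.15, 8.78 and 7.39 FPKM in wild type 1, 2 and 3 against 7.89, 1.78, 2.77 and 14.6 in cKO 1 to 4. Lane set its level apart, with lane 7 at 1.78 to 3.15 and lane 5 at 7.39 to 14.6, and the genotypes overlapped. The log2 fold change was -0.22 (SE 0.65, limma adjusted p = 0.953), 0.068 with the lane as a term (limma adjusted p = 0.919) and 0.35 with centring on the B lineage list, so no direction can be given. S1pr2 (chromosome 9, 20965952 to 20976793) was 0.313, 2.91 and 0.631 FPKM in wild type 1, 2 and 3 against 3.12, 0.495, 1.40 and 2.37 in cKO 1 to 4. Wild type 2, cKO 1 and cKO 4 were the high libraries, and the log2 fold change was 0.52 with a 95% interval from -0.77 to 1.82 (SE 0.57, limma adjusted p = 0.918).

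Gcsam, which encodes a signalling protein of germinal centre B cells and was named after its values had been seen, was 0.477, 1.60 and 0.712 FPKM in wild type 1, 2 and 3 against 2.81, 0.776, 1.59 and 2.61 in cKO 1 to 4. It is 1 of the 3 genes picked below for a pattern like that of S1pr2, so its likeness to S1pr2 was fixed by that choice. Rgs13, of the same marker list, was 3.48, 4.02 and 1.13 FPKM in wild type 1, 2 and 3 against 4.42, 3.34, 2.96 and 1.40 in cKO 1 to 4, and Fas was 1.48, 3.34 and 2.79 against 2.45, 1.12, 1.26 and 2.78. Both were named after their values had been seen, and neither had its 3 highest values in the same libraries as S1pr2. The part of germinal centre B cells in the S1pr2 values was not tested.

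Gpr183 (chromosome 14, 121952331 to 121965193) was 36.5, 40.6 and 42.4 FPKM in wild type 1, 2 and 3 against 22.9, 13.4, 18.4 and 38.2 in cKO 1 to 4. The 3 wild type libraries lay close together, 3 of the 4 cKO libraries lay far below them, and cKO 4 lay within their range. Means were 39.8 ± 2.99 (SD, n = 3) and 23.2 ± 10.7 (SD, n = 4), and the log2 fold change was -0.87 (SE 0.33, limma adjusted p = 0.361; two-sided exact permutation p = 0.114). A lane term gave -0.77 (SE 0.22), just short of the threshold (limma adjusted p = 0.0519), with -0.48 in lane 5 and -1.19 in lane 7. Gpr183 sits inside Ubac2 on the opposite strand, and no source used here says that reads were counted by strand. Ubac2 itself stood at 22.2 ± 2.09 FPKM (SD, n = 3) for wild type against 21.2 ± 6.86 (SD, n = 4) for cKO.

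Cnr2 (chromosome 4, 135895404 to 135920210) was 21.0, 57.7 and 62.3 FPKM in wild type 1, 2 and 3 against 33.8, 13.5, 16.5 and 51.4 in cKO 1 to 4. The lane 7 libraries all lay under the lane 5 libraries, and within each lane every cKO library lay under every wild type library. Means were 47.0 ± 22.7 (SD, n = 3) and 28.8 ± 17.5 (SD, n = 4), and the log2 fold change was -0.75 (SE 0.53, limma adjusted p = 0.788), smaller in size than the difference between lanes given below. Fitted with the lane, it was -0.50 (SE 0.18, limma adjusted p = 0.102), with -0.52 in lane 5 and -0.48 in lane 7.

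Ptger4 (chromosome 15, 5233404 to 5243831, downstream of the RefSeq start used for the window above) had the opposite direction. It was 9.70, 5.14 and 5.05 FPKM in wild type 1, 2 and 3 against 11.4, 12.8, 14.1 and 16.2 in cKO 1 to 4, so every cKO library lay above every wild type library, as for 7.99% of all genes. The means were 6.63 ± 2.66 (SD, n = 3) and 13.7 ± 2.02 (SD, n = 4), a ratio of 2.06. The log2 fold change was 1.04 (SE 0.27, limma adjusted p = 0.137), and the exact permutation p was 0.0571 (two-sided), again the smallest possible. With the lane as a term Ptger4 rose by 0.98 (SE 0.20, limma adjusted p = 0.00895), where 9.59% of all genes were called higher. Without wild type 1 it passed with no lane term (1.33, limma adjusted p = 0.0422), as did 2.19% of all genes. The difference was 1.33 in lane 5 and 0.45 in lane 7, a gap of -0.88 (SE 0.35) in a fit of genotype by lane. Lane 7 holds 1 wild type library, so that fit cannot settle whether the lanes differ in this.

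**Figure D2:**
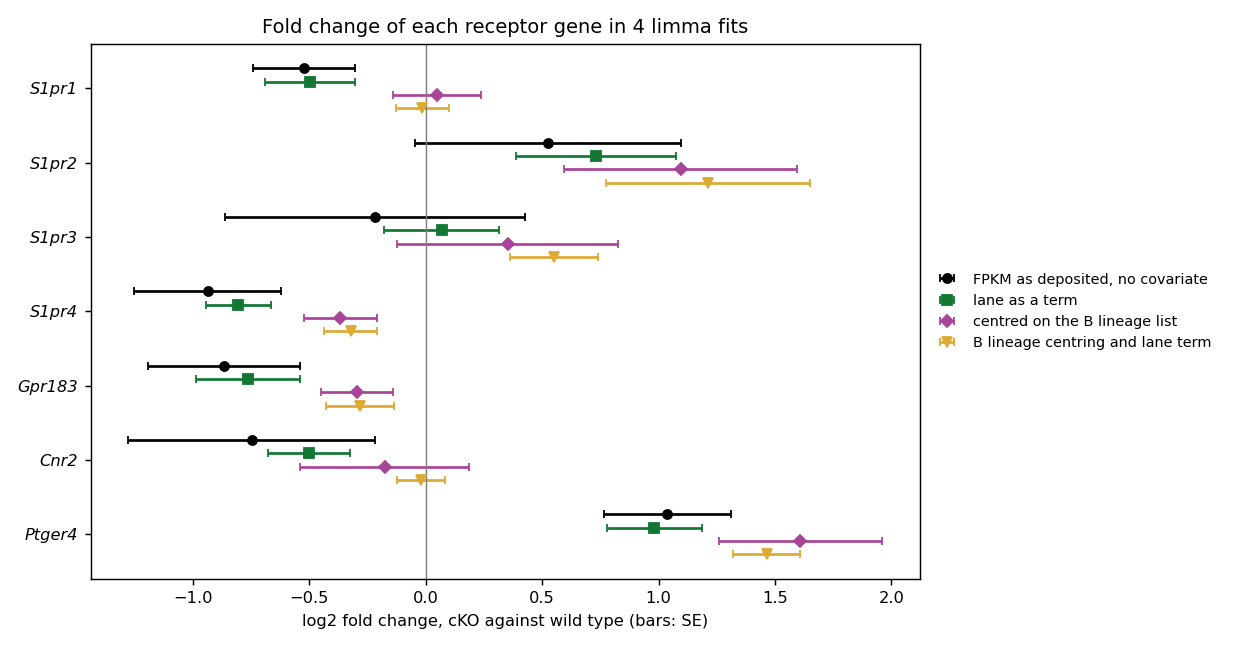
Log2 fold change of cKO against wild type (horizontal axis, bars are SE) for each receptor gene in 4 limma fits: FPKM as deposited, with the lane as a term, centred on the B lineage list, and both together. Ptger4 lies above 0 in each fit, and S1pr1 moves from -0.52 as deposited to 0.049 with centring on the B lineage list.

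The lanes differed more than the genotypes in several of these genes. With the genotype in the fit, 5 of the 7 were lower in lane 7 past the threshold, where 58.2% of all genes were. S1pr3 had a lane difference of -1.72 on the log2 scale (SE 0.25, limma adjusted p = 0.000433), Cnr2 one of -1.47 (SE 0.18, limma adjusted p = 0.000254) and S1pr2 one of -1.25 (SE 0.34, limma adjusted p = 0.00885). S1pr4 and Gpr183 followed with -0.80 and -0.61 (limma adjusted p = 0.00104 and 0.0321). S1pr1 (-0.15, limma adjusted p = 0.489) and Ptger4 (0.34, limma adjusted p = 0.158) did not pass. The summed level of marginal zone B cell markers separated by lane too, at 143.6 to 208.7 FPKM in lane 7 and 285.7 to 395.3 in lane 5. Of its 9 genes, 5 lay lower in every lane 7 library than in every lane 5 library, and 4 (Cd9, Mzb1, Asb2 and Plxnd1) did not. The share of all genes with that order was not counted. The 58.2% of all genes called lower in lane 7 is a share of limma calls, a different measure. Whether 5 of 9 sets the marker list apart is therefore not known. T cell sums, at 15.2 to 18.4 FPKM in lane 7 and 25.2 to 60.8 in lane 5, and stromal and endothelial sums, at 28.8 to 36.3 and 41.2 to 72.2, also separated by lane. Gene by gene, 6 T cell markers had that order and 4 did not. Of the stromal and endothelial markers 3 had it and 8 did not, and most of their sum was Pecam1, with a mean of 38.7 FPKM. The part of these cells in the lane differences of S1pr3 and Cnr2 was not tested. Within both lanes, 4 of the 7 genes (S1pr1, S1pr4, Gpr183, Cnr2) had every cKO library lower, against 8.63% of all genes, and Ptger4 had every one higher, against 19.2%. In lane 7 such an order rests on 1 wild type library.

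Beside the B lineage markers, the 4 lower genes differed less. Setting each library to the same mean log2 level of the 10 B lineage markers raised every fold change by 0.57, and the median of all genes tested from -0.09 to 0.48. On that scale S1pr1 had 0.049 (SE 0.19), Cnr2 -0.18 (SE 0.36), Gpr183 -0.30 (SE 0.15) and S1pr4 -0.37 (SE 0.16), and none of the 4 passed (limma adjusted p = 0.820, 0.668, 0.136 and 0.0851). Relative to the median gene the values are those of the unscaled fit, with -0.43 for S1pr1, -0.66 for Cnr2, -0.78 for Gpr183 and -0.85 for S1pr4. Ptger4 rose by 1.61 against the B lineage markers (SE 0.35, limma adjusted p = 0.0167), where 44.3% of all genes were called and 96.6% had a positive value. Combined with the lane as a term, this scaling left S1pr4 past the threshold at -0.32 (SE 0.11, limma adjusted p = 0.0357), and S1pr1 at -0.01 and Cnr2 at -0.02. S1pr2 and S1pr3 were called higher there (1.21 and 0.55, limma adjusted p = 0.0379 and 0.0316), as was Ptger4 (1.46), in a fit that called 79.4% of all genes.

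**Figure D3:**
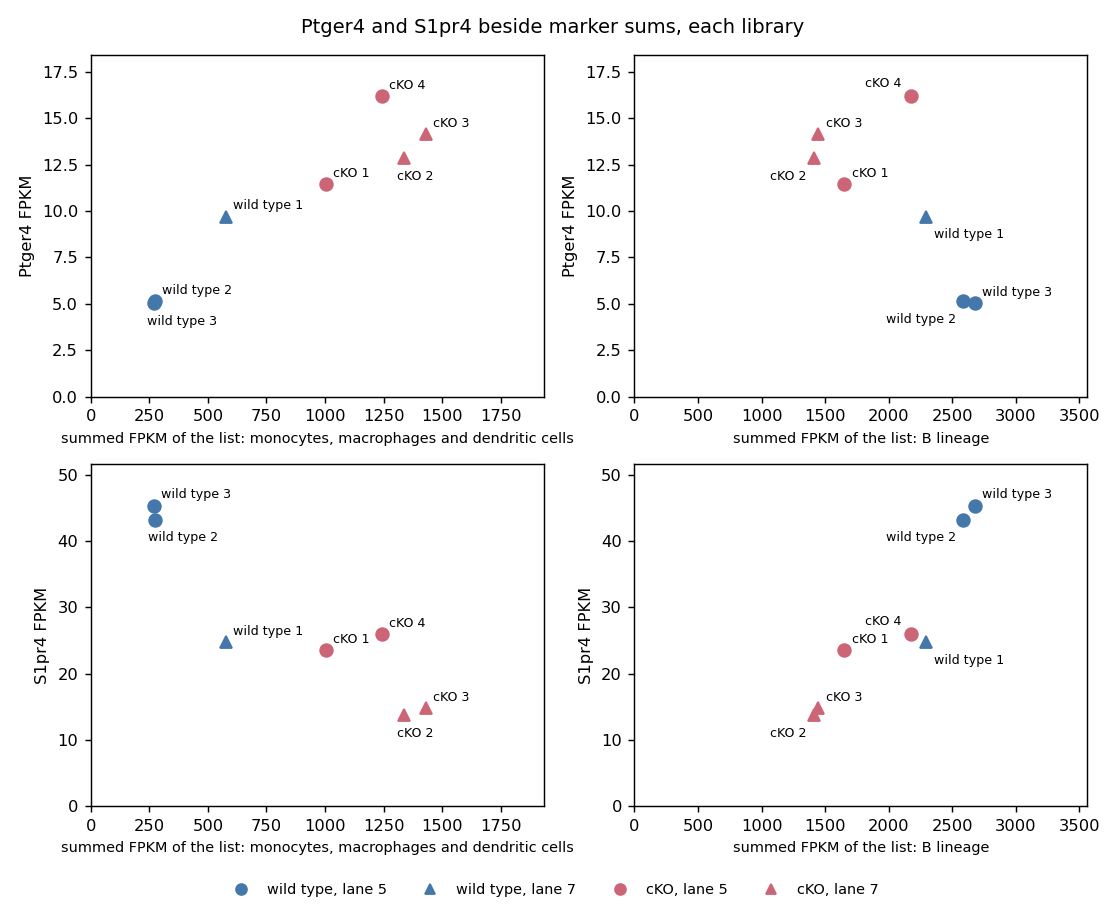
Ptger4 (top) and S1pr4 (bottom), FPKM on the vertical axes, against the summed FPKM of the monocyte, macrophage and dendritic markers (left) and of the B lineage markers (right), a point per library with color for genotype and shape for lane. Wild type 1 has the highest myeloid sum and the highest Ptger4 of the wild type libraries.

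Ptger4 is made by macrophages and other leukocytes as well as by B cells. The 3 wild type libraries had myeloid sums of 577.2, 273.7 and 269.6 FPKM beside Ptger4 at 9.70, 5.14 and 5.05, and cKO 1 to 4 had sums of 1003, 1338, 1429 and 1242 beside 11.4, 12.8, 14.1 and 16.2. Of the myeloid markers, 14 of 14 tested had a positive fold change, against 38.5% of all genes tested, and 0 were at 0 in every library. Summed NK cell markers were 16.0 to 21.4 FPKM in wild type and 36.4 to 82.6 in cKO, and T cell markers 15.2 to 28.5 and 18.4 to 60.8. Neutrophil markers were 28.4 to 41.1 and 87.2 to 194.0, and those of platelets 24.4 to 40.0 and 42.6 to 114.2. Erythroid marker sums overlapped, at 636.3 to 7770 FPKM in wild type and 464.1 to 4136 in cKO. Wild type 1 was highest and cKO 4 lowest. These sums include Hbb-b1 and Hba-a1, at 5888 and 712.9 FPKM in wild type 1, which were not tested. Hbb-b1 was listed at 0 in cKO 2 and cKO 3. Of the erythroid markers tested, 8 of 8 had a positive log2 fold change (median 1.96), and 0 passed the threshold. Stromal and endothelial sums overlapped too, at 36.3 to 44.1 FPKM in wild type and 28.8 to 72.2 in cKO. The part of these cells in the Ptger4 difference was not tested.

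The order of levels, which FPKM allow between genes since they are per length, was the same in both genotypes by the means: S1pr1, Cnr2, Gpr183, S1pr4, Ptger4, S1pr3, S1pr2. In wild type S1pr1 exceeded the next gene in 3 of 3 libraries, by a ratio of 1.89 to 5.46. Cnr2, Gpr183 and S1pr4 could not be ordered, since their ranges overlapped in both genotypes. Ptger4 exceeded S1pr3 in 1 of 3 wild type and in 4 of 4 cKO libraries, with ranges that overlapped in both. Between S1pr4 and Ptger4 lay a ratio of 2.55 to 8.97 in wild type and of 1.05 to 2.06 in cKO. S1pr1 held 41.9% to 54.5% of the summed FPKM of the 7 genes in wild type and 40.8% to 57.3% in cKO. Ptger4 held 1.80% to 4.63% in wild type and 6.22% to 9.83% in cKO, a within-library share that no scaling of the library changes. This share was looked at after the values were seen.

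Other receptors for the same ligands were scarce. S1pr5, the S1P receptor of NK cells, Cnr1, Ptger1, Ptger2 and Ptger3 all had a mean under the filter of 1 FPKM and were not tested. Their summed level was 0.533 to 0.896 FPKM in wild type and 1.07 to 3.16 in cKO. The most abundant were Ptger3, at 0.306 ± 0.102 FPKM (SD, n = 3) for wild type against 0.923 ± 0.511 (SD, n = 4) for cKO, and S1pr5, at 0.160 ± 0.122 and 0.596 ± 0.360.

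Enzymes and transporters of the ligands were counted by lists, in which 0 genes passed limma's threshold over all genes without a lane term. Of 15 genes that make, move or degrade S1P, 11 were tested, with a median log2 fold change of 0.57, 5 higher and 1 lower at an unadjusted p under 0.05, and 4 higher and 1 lower past the threshold with the lane as a term. Over all genes tested, 10.7% had an unadjusted p under 0.05, and with the lane as a term 9.59% were called higher and 1.19% lower. The most abundant were the acid ceramidase gene Asah1, at 20.8 ± 2.14 FPKM (SD, n = 3) for wild type against 31.5 ± 7.29 (SD, n = 4) for cKO, and the S1P lyase gene Sgpl1, at 22.8 ± 4.95 and 25.3 ± 10.1. Chosen after its values were seen, Mfsd2b, the S1P exporter of red cells and platelets, had 1.97 ± 1.89 and 9.13 ± 5.88. The exporter gene Spns2, the 1 lower gene, also named after its values were seen, had 8.30 ± 1.64 and 5.09 ± 1.56, with a fold change of -0.59 with the lane as a term (limma adjusted p = 0.0421).

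For the Gpr183 ligand, the synthetic enzymes Ch25h and Cyp7b1 were near 0, with means of 0.0361 and 0.0483 FPKM in wild type and 0.0386 and 0.0899 in cKO. Hsd3b7, which degrades the ligand, was 0.845 ± 0.160 FPKM (SD, n = 3) for wild type against 2.49 ± 0.712 (SD, n = 4) for cKO, and it rose with the lane as a term (1.16, limma adjusted p = 0.00301). Cyp27a1, a sterol hydroxylase, was 5.48 ± 1.80 and 8.98 ± 5.28, with 0.73 with the lane as a term (limma adjusted p = 0.0207).

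The list for prostaglandin E2, the ligand of Ptger4, had a median log2 fold change of 1.31 over 6 tested genes of 8, with 4 higher at an unadjusted p under 0.05 and the same number called with the lane as a term (10.7% and 9.59% of all genes, as above). Those 4, named after their values were seen, were the cyclooxygenase genes Ptgs1 and Ptgs2, the phospholipase gene Pla2g4a and Hpgd, which inactivates prostaglandin E2. Ptgs1 was 2.25 ± 1.94 FPKM (SD, n = 3) for wild type against 9.59 ± 4.41 (SD, n = 4) for cKO, Ptgs2 0.725 ± 0.371 and 2.89 ± 0.947, and Hpgd 8.72 ± 8.27 and 27.8 ± 8.65. Ptges3, the most abundant member, was 26.6 ± 7.41 and 24.9 ± 7.66. The endocannabinoid list, around Cnr2, had a median of 0.41 over 6 tested genes of 8, with 3 called higher with the lane as a term. Its most abundant members were the lipase genes Abhd12, at 16.8 ± 1.92 and 20.8 ± 2.93 FPKM, and Daglb, at 5.52 ± 0.898 and 8.25 ± 2.02. Myeloid marker sums, given above, were higher in the same cKO libraries, and their part in these lists was not tested.

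**Figure D4:**
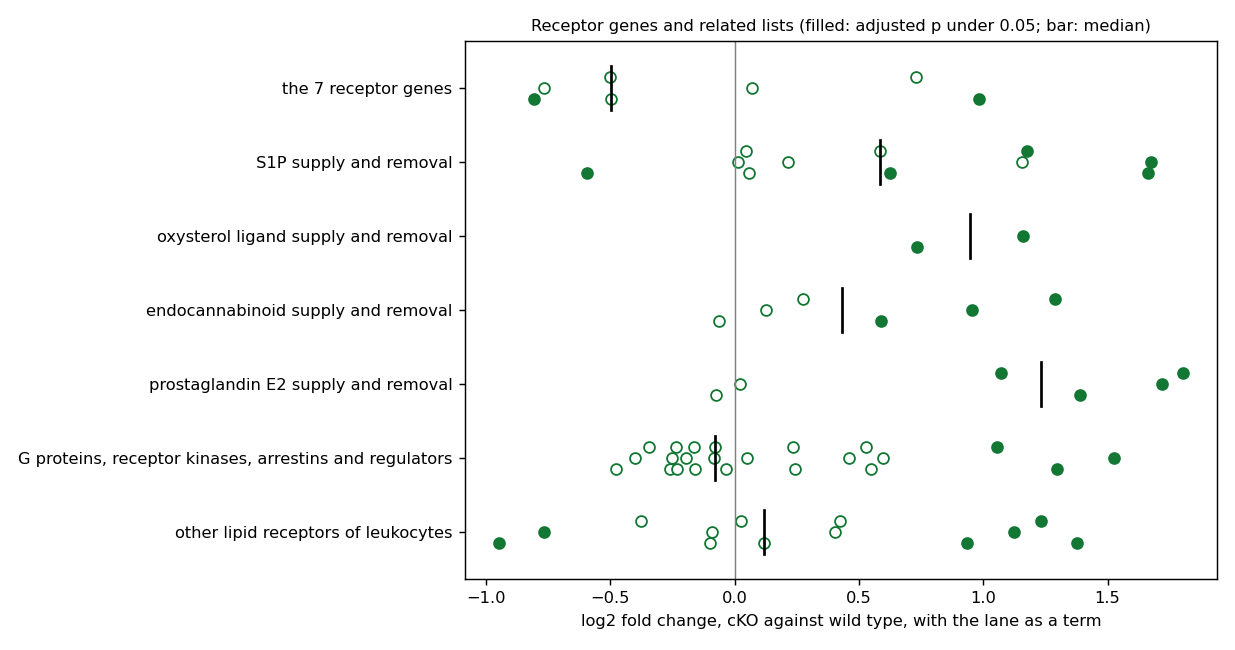
Log2 fold change with the lane as a term (horizontal axis) for the 7 receptor genes and the tested genes of 6 related lists (rows), a point per gene, filled where the limma adjusted p was under 0.05, with a bar at each median. The prostaglandin E2 list has its median at 1.23, and the receptor genes at -0.50.

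Downstream of the receptors, 23 of 25 genes for G proteins, receptor kinases, arrestins and regulators were tested. Their median log2 fold change was -0.17, and 0 passed in limma. At an unadjusted p under 0.05, 4 were higher, where 10.7% of all genes had such a p in either direction. With the lane as a term 3 were called higher, beside 9.59% of all genes called higher in that fit. The most abundant, Gnas and Gnai2, which encode the stimulatory and an inhibitory G protein subunit, were 148.0 ± 13.5 and 126.5 ± 10.8 FPKM (SD, n = 3) for wild type against 170.5 ± 32.6 and 116.6 ± 27.1 (SD, n = 4) for cKO. Klf2, Foxo1 and Cd69, regulators of S1pr1, were looked up after the values were seen. The transcriptional activator Klf2 was 127.8 ± 5.48 and 108.2 ± 18.7 FPKM, the forkhead factor gene Foxo1 12.2 ± 1.83 and 9.20 ± 2.58, and Cd69, whose protein takes S1pr1 off the cell surface, 86.7 ± 76.5 and 67.9 ± 36.1. Their limma adjusted p-values were 0.863, 0.720 and 0.954. Rgs1, which damps signals of such receptors and was named after its values were seen, was 30.5 ± 27.7 and 89.9 ± 40.9 FPKM, and was 1 of the 3 genes called with the lane as a term (1.52, limma adjusted p = 0.00349).

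For each receptor gene the tested genes with the most similar pattern over the 7 libraries were listed by Pearson's r of log2(FPKM + 0.5), among 9435 genes. All share the 7 libraries and their lanes, so r is a description only. S1pr1 was followed most closely by Pde4b, a phosphodiesterase that degrades cyclic AMP (r = 0.991), then Nmb (0.981) and Ubxn6 (0.979). Gpr183 was nearest to Osbpl9, an oxysterol-binding-protein-like gene (r = 0.998), Pxk (0.995) and Sdc4 (0.994), and S1pr4 to Dpm3 (0.994), Ap1m2 (0.992) and Sit1 (0.988). Cnr2 came closest to Klhdc5 (r = 0.997), Bcl6, a transcription factor of germinal centre B cells (0.996), and the receptor gene Gpr18 (0.996). S1pr3 resembled Bet1 (r = 0.998), Chsy1 (0.998) and Bcl2l12 (0.997). S1pr2 lay nearest to Dnalc4 (r = 0.946), Slfn3 (0.936) and Gcsam (0.935), and Ptger4 to Ptplad2 (0.987), Cbr3 (0.987) and Gsto1 (0.983). Among the receptors themselves, r was highest between Cnr2 and S1pr4 (0.914), and lowest between Ptger4 and S1pr4 (-0.830).

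The authors' deposited table sets an arm q2 against an arm q1, made of these same libraries, without naming the genotype of either, so it adds no independent evidence. Of the 7 receptor genes in the authors' deposited table, 2 had q under 0.05, against 15.2% of 12100 genes with a full test. S1pr4 had a test statistic of -2.30 (q = 0.000796) and Ptger4 one of 1.93 (q = 0.00679) in the authors' deposited table, the signs being those of q2 over q1. Cnr2 followed with -1.48 (q = 0.0531), and the q of the other 4 in the authors' deposited table lay between 0.247 and 0.896.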

How the data were processed

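RNA from 4 cKO and 3 wild type libraries of CD43-depleted splenocytes was sequenced. The authors deposited FPKM per gene and library with a status, per the file headers, and a table of Cuffdiff's comparison with its signed score, also deposited by the authors with p-values and q-values. TopHat2, Cufflinks and Cuffdiff are named, without versions, in the submitters' processing notes. These notes also name mm9, but positions in the table overlapped the GRCm38 gene for 99.5% of 21440 symbols present once in the table and in GENCODE M21, so positions are given as GRCm38. Library depth is not given in the sources used here, so counting error is unknown and errors are SDs over libraries.

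Groups, replicate numbers and lanes were taken from the labels. Rows with the status OK in every library (23508 of 23845) and a mean of at least 1 FPKM, 10065 in all, were fitted with limma 3.58.1 in R 4.3.3 (lmFit, eBayes with a trend) on log2(FPKM + 0.5), a scale that understates changes of low genes. Tests were two-sided, with Benjamini-Hochberg adjustment over all genes tested and a threshold of 0.05. The fit had no covariate, and the lane was an alternative. The fit was tested on simulated data first. Exact permutation tests for single genes used scipy 1.17.1 and figures matplotlib 3.10.9. Of each related list the text names genes past the threshold without a lane term, otherwise the 2 with the highest mean FPKM. Some other names were chosen after their values were seen, and the text says so for these. Ch25h, Cyp7b1, Ptgdr, the scarce receptors for the same ligands and the cell type markers were also named outside this rule. The 3 genes most like each receptor exclude predicted, small RNA and antigen receptor genes. The receptor genes and the lists were chosen with earlier results of these data known. Alternatives covered the pseudocount, filter, trend, scaling, lane, replicate number and each library left out. The Cre driver and 1 gene of a marker list are not reported here.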

Additional observations from a re-analysis of the deposited data

How the results depend on the processing

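Over all 7 libraries as deposited, limma called 0 of the 7 receptor genes, and 1.32% of all genes. The receptor count was also 0 with a pseudocount of 0.1 or 1, where 1.06% and 0.546% of all genes were called. It was 0 with no trend (1.43% of all genes) and with quantile normalization (1.65%). With no filter 0 of 17506 genes were called, and with a filter of 2 FPKM, which drops S1pr2, 0 of 8904. A count of 0 in these 2 settings therefore says nothing of the receptors. Lane 7 alone leaves 1 wild type library and is not counted here. The count was 2 with median centring (S1pr4 and Gpr183 lower) and 1 with B lineage centring (Ptger4 higher). It was 2 with the lane as a term and 2 in lane 5 alone (S1pr4 lower and Ptger4 higher in both). Combinations added after seeing the data gave 5 genes (4 lower) for median centring with the lane term, 4 (3 lower) for quantile normalization with it and 4 (1 lower) for B lineage centring with it. Leaving out a library gave 0 to 1, the 1 being Ptger4 without wild type 1 (1.33, limma adjusted p = 0.0422), where 2.19% of all genes passed. Without wild type 3, or without any 1 of the cKO libraries, 0 of all 10065 genes were called, and without wild type 2 only 1. The receptor counts of 0 there say nothing of these genes in particular. S1pr1 reversed to 0.049 with B lineage centring. S1pr3 reversed to 0.35 with B lineage centring, 0.068 with the lane as a term, 0.39 in lane 5 alone and 0.55 with B lineage centring and the lane term, and ran from -0.70 to 0.21 with a library left out. The cause was not tested. Ptger4 ran from 0.45 to 1.61 and S1pr4 from -1.21 to -0.32 over all settings.

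The replicate block called 0 of all 10065 genes, so its 0 for the receptors is not particular to them. Samples with the same number shared only a number: their deviations from the group means correlated at -0.407, -0.502 and -0.692, and each such pair came from different lanes. In the block cKO 4 has no partner, so its fold changes equal those without cKO 4. S1pr2, with a mean of 1.60 FPKM, lies close to the filter. In lane 7 alone 1 wild type library is assumed to vary like the cKO libraries.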

Other observations

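Receptors for other lipids were counted outside the comparisons above. Of 24 such genes of leukocytes 13 were tested, with a median log2 fold change of -0.05, and 0 passed in limma. An unadjusted p under 0.05 was found for 2 higher and 1 lower, against 10.7% of all genes in either direction. With the lane as a term, 4 were called higher and 2 lower, where 9.59% of all genes were called higher and 1.19% lower. P2ry10, a lysophosphatidylserine receptor gene and the most abundant of the list, was 109.1 ± 7.55 FPKM (SD, n = 3) for wild type against 57.1 ± 11.6 (SD, n = 4) for cKO. Its log2 fold change was -0.95 both without the lane term (limma adjusted p = 0.0900) and with it (limma adjusted p = 0.00813). Gpr174, another receptor for that lipid, was 19.6 ± 6.59 and 10.6 ± 6.21 FPKM, with -0.77 with the lane as a term (limma adjusted p = 0.0256). Gpr34, a receptor for the same lipid that was named after its values were seen, had 5.01 ± 0.603 and 10.02 ± 1.78 FPKM, with 0.94 with the lane as a term (limma adjusted p = 0.00378). Ptgdr was listed at 0 in every library.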
